A study of Mus musculus with 24 samples.

Results

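Pancreatic stellate cells (PSC) that had shared a membrane with pancreatic cancer cells for 72 h, the inverse co-culture, were compared with mono-cultured control PSC of the same time point. The comparison takes the 3 libraries labelled as inverse treatment at 72 h and the 3 labelled as inverse control at 72 h, which are 6 of the 24 libraries of the study. In the inverse model KPC cells grew on the underside of a membrane with pores of 1 µm and PSC on its upper side, so that the cells could exchange soluble factors at close range without being seeded together. KPC cells are a line from 1 female p48-Cre mouse that carried a mutant Trp53 allele among its engineered alleles, and therefore stand for a single tumour. All PSC were wild type, came from pooled pancreata of young adult C57BL/6J mice of both sexes, and were used at a low passage. Control PSC were seeded into the same inserts without KPC cells and received the same medium with serum. KPC cells were already attached when PSC were seeded, a day before the time was counted, so the cells had been together for longer than the stated 72 h. The other groups used here are PSC of the inverse model at 24 h and of the standard model at 72 h, where KPC cells sat on the well floor beneath the insert, each with its own control.

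PSC are the fat-storing, vitamin A-containing cells of the pancreas. In culture or after injury they lose their lipid droplets, take on the features of myofibroblasts and deposit collagen, fibronectin and proteoglycans. In pancreatic cancer they are a source of cancer-associated fibroblasts, which are commonly grouped into contractile, inflammatory and antigen-presenting types.

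Each of the 6 libraries held between 17416083 and 23874545 counted fragments, as recovered from the FPKM values, which give fragments scaled to transcript length and to library size. Levels below are FPKM in replicates 1, 2 and 3, and n is 3 libraries in each group throughout. Summed FPKM was higher for stellate cell and fibroblast markers than for those of every other cell type looked at. Such sums follow the level of the markers chosen and do not measure shares of cells. The summed FPKM of 15 such markers was between 29725 and 35471 in co-culture and between 21988 and 27986 in controls, with Pdpn at 0 and Gfap below 1 FPKM in all 6 libraries. Of 22 epithelial markers 7 were at 0 in all 6 libraries, among them Epcam, Cldn4 and Esrp1, and of 13 endothelial markers 4, among them Cdh5. Endocrine islet markers and 12 of 13 acinar markers stayed below 1 FPKM. Pericyte and smooth muscle markers summed to between 344 and 654 FPKM in co-culture and between 567 and 1115 FPKM in controls. Markers of macrophages and of adipocytes were present and moved with the groups, as given beside the results they touch. The study calls the replicates biological but does not say whether they came from separate PSC isolations, so p-values measure the spread between these libraries only.

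Of 13066 genes tested, 1678 (12.8%) differed between the PSC co-cultured for 72 h and their controls at an adjusted p below 0.05. Of these, 427 (3.27%) were higher and 1251 (9.57%) lower in co-culture. Counts of listed genes below are to be read beside these shares over all genes tested. The change reached at least 1 on the log2 scale in 654 of them, 180 higher and 474 lower, and at least 2 in 141, 30 higher and 111 lower. Fold changes are differences of log2(FPKM + 0.5), co-culture minus control, with their standard error (SE) and the adjusted p of limma's moderated test. The median over all genes tested was -0.16, so most genes sat slightly below control. Scaling the libraries by the median of gene ratios moved this median to -0.01 and turned the split into 746 higher and 686 lower genes, so changes of less than about this shift depend on the scaling. The number of genes called rested on single libraries, as it fell to 503 without co-culture replicate 1, to 514 without control replicate 1, to 914 without control replicate 2 and to 368 without control replicate 3. In all 6 fits without 1 library 312 genes were called, 100 higher and 212 lower. The 3 libraries of each group lay apart in all 1678 genes called and in 38.3% of all genes tested. That the groups lie apart in a called gene named below is therefore no further evidence.

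**Figure D1:**
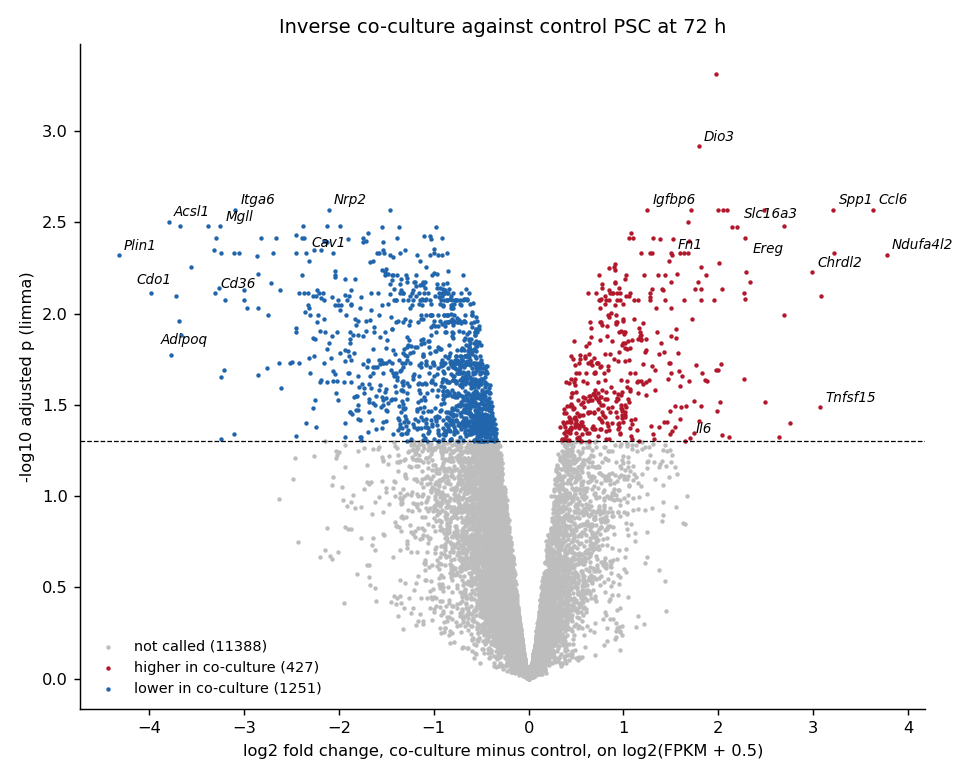
Each point is 1 of 13066 genes tested at 72 h. The x axis is the log2 fold change of inverse co-culture minus control on log2(FPKM + 0.5) and the y axis is -log10 of limma's adjusted p, with the dashed line at 0.05. The 427 genes called higher are red and the 1251 called lower are blue, and Plin1, Cdo1 and Acsl1 have the largest falls among the genes named.

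The largest falls included many genes that store and release fat. Of 22 tested genes of the adipocyte and lipid droplet list, 20 were lower in co-culture and none was higher, with a median log2 fold change of -2.70, and the count of lower genes was 13 without control replicate 3, the fewest of the fits without 1 library. Plin1 (chr7:79720218-79732903, GRCm38), the protein that coats and guards the lipid droplet, was at 13.2, 29.8 and 5.82 FPKM in co-culture and at 343, 204 and 298 FPKM in controls. Every co-culture library was thus far below every control library, a 17.3-fold difference of the means, with a log2 fold change of -4.32 (SE 0.50, adjusted p 0.00478). Acsl1, which activates long-chain fatty acids for storage or oxidation, was at 21.9, 32.9 and 13 FPKM against 357, 220 and 341 FPKM, with a log2 fold change of -3.79 (SE 0.33, adjusted p 0.00313). Again the groups lay apart, and both genes were called in all 6 fits without 1 library.

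The fatty acid transporter Cd36 was at 9.25, 14.6 and 4.24 FPKM in co-culture and at 109, 49.3 and 123 FPKM in controls, a log2 fold change of -3.31 (SE 0.47, adjusted p 0.00774). The intracellular carrier Fabp4 was at 30.5, 42.1 and 14.2 FPKM against 311, 124 and 254 FPKM, a log2 fold change of -3.00 (SE 0.44, adjusted p 0.00841). In both genes co-culture replicate 2 was the highest of its group and control replicate 2 the lowest of its own, and the groups still did not overlap. The same order of libraries was seen in the lipases Lipe and Pnpla2, which break down triglycerides. Lipe was at 7.41, 9.57 and 4.99 FPKM against 57.5, 33.6 and 55.9 FPKM, and Pnpla2 at 17.6, 23.6 and 18.6 FPKM against 135, 74.4 and 133 FPKM. Their log2 fold changes were -2.67 and -2.45 (SE 0.27 and 0.24), so genes of droplet building and of droplet breakdown fell together.

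The regulators of this group were lower too. Cebpa, a transcription factor of fat cell differentiation, was at 57.4, 71.9 and 39.7 FPKM in co-culture and at 274, 194 and 263 FPKM in controls, with a log2 fold change of -2.13 (SE 0.23, adjusted p 0.00407). Pparg, the nuclear receptor that drives the same genes, was at 25.2, 26.6 and 10.4 FPKM against 63.1, 44 and 66.6 FPKM, with a log2 fold change of -1.55 (SE 0.35, adjusted p 0.0286). Pparg was not called without co-culture replicate 1 or without any 1 of the 3 controls. The adipokine Adipoq fell by 3.77 on the log2 scale (SE 0.70, adjusted p 0.0168), from 125, 44.3 and 115 FPKM in controls to 6.66, 15.9 and 1.70 FPKM, and was not called without co-culture replicate 1, control replicate 1 or control replicate 3. Cidec, which fuses lipid droplets, and Aqp7, the glycerol channel, had log2 fold changes of -3.69 and -3.29. Lpl, the lipase that frees fatty acids from lipoproteins, kept a high level in co-culture at 647, 833 and 376 FPKM against 1596, 1243 and 1608 FPKM, with a log2 fold change of -1.32 (SE 0.28).

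**Figure D2:**
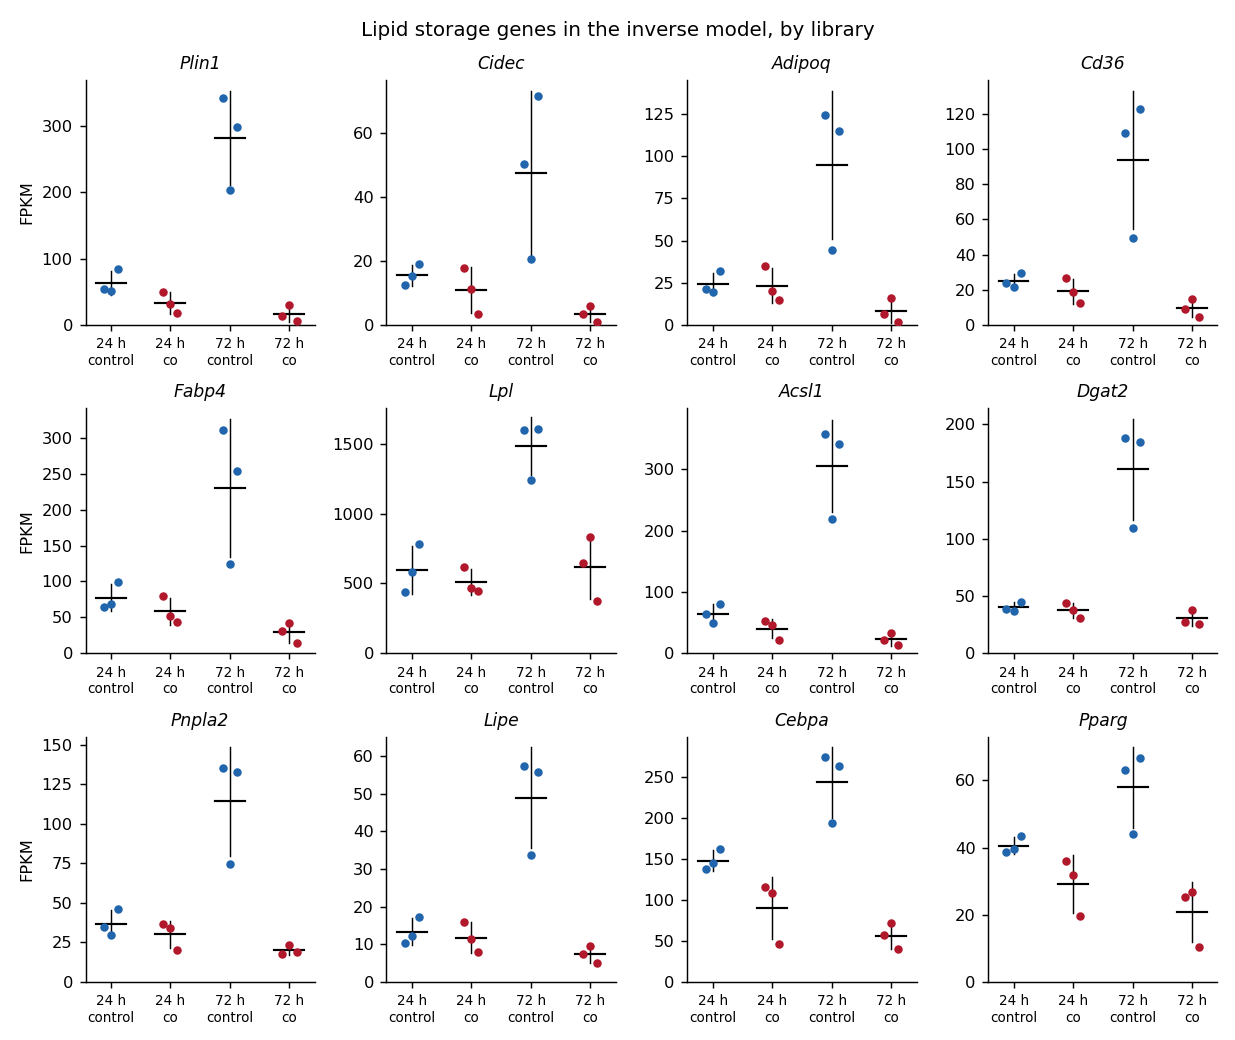
Levels of 12 lipid genes in FPKM on linear axes, 1 point per library, in control (blue) and co-cultured (red) PSC of the inverse model at 24 h and 72 h, with the mean as a bar and the SD as a line (n = 3). In each gene the 72 h controls have the highest mean and lie apart from the 72 h co-cultures, as for Plin1 with 204 to 343 against 5.82 to 29.8 FPKM.

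These fat genes differed between the time points in the controls as well. In control PSC of the inverse model, 2516 of 13092 genes tested (19.2%) differed between 72 h and 24 h, and 19 of the 22 adipocyte and lipid droplet genes were higher at 72 h (10.2% of all genes were), with a median of 1.43. Plin1 averaged 63.5 ± 18.3 FPKM (SD) in controls at 24 h and 282 ± 70.8 at 72 h, and 33.1 ± 16.3 and 16.3 ± 12.3 in co-culture. Dgat2, which makes the last step of triglyceride synthesis, averaged 40.1 ± 4.34 FPKM in controls at 24 h and 161 ± 44.3 at 72 h, but 37.5 ± 6.63 and 30.4 ± 6.85 in co-culture. The means of both genes were thus higher at 72 h than at 24 h in controls and not in co-culture, whereas Lpl was at 620, 466 and 446 FPKM in co-culture at 24 h, within the range of its 72 h values. Both contrasts share the 72 h controls, so their values are given side by side and not as separate evidence. Summed over 10 mature adipocyte markers, 9 of which are in the same list, the FPKM was between 465 and 977 in 72 h controls and between 32.8 and 121 in co-culture. From bulk RNA, fewer lipid-laden cells in a culture cannot be told apart from less of these RNAs per cell.

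Among enzymes that build fat, part of each list was lower. Of 16 tested genes of triglyceride and phospholipid synthesis 9 were lower and none was higher, with a median of -1.08. Gpat3, which starts glycerolipid synthesis, was at 0.592, 1.75 and 0.800 FPKM in co-culture against 16.1, 8.94 and 19.4 FPKM, a log2 fold change of -3.31 (SE 0.36, adjusted p 0.00449). Mgll, the monoacylglycerol lipase, fell by 3.25 (SE 0.30), and Pnpla3 and Dgat2 had -3.00 and -2.36. Of 23 genes of fatty acid synthesis and acyl-CoA synthetases 8 were lower and 2 higher, with a median of -0.28, and 2 were lower without control replicate 3. Fasn, the fatty acid synthase, fell by 1.09 and Srebf1, its regulator, by 0.79, while Acsl4, an acyl-CoA synthetase that prefers arachidonic acid, was higher at 29.5, 29.3 and 25.6 FPKM against 17.4, 14.1 and 12.9 FPKM. The change of Acsl4 was 0.91 (SE 0.14, adjusted p 0.00892) and was called in all 6 fits without 1 library.

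In the mitochondria and peroxisomes, most genes leaned lower, with falls smaller than those of the storage genes. All 26 tested genes of fatty acid beta-oxidation had a negative fold change, with a median of -0.54, and 13 were called. Acadm, the medium-chain acyl-CoA dehydrogenase, was at 48.3, 50.5 and 39.8 FPKM against 84.1, 78.2 and 95.2 FPKM, a log2 fold change of -0.89 (SE 0.13, adjusted p 0.00774). All 20 peroxisome genes were below 0 as well, 14 of them called, from Abcd2 at -2.45, a transporter of very long-chain fatty acids, to Pex19 at -0.44. Among 24 citrate cycle genes 12 were lower, led by Pcx, the pyruvate carboxylase, at -1.85 (SE 0.32, adjusted p 0.0132). Of 12 genes of the mitochondrial genome 6 were lower, among them mt-Nd4 at -0.78 and mt-Nd5 at -0.67, subunits of respiratory complex I. Of 38 respiratory chain genes of the nucleus only 2 were, Uqcrfs1 and Sdha. These calls were small and depended on scaling and on single libraries, since with median-ratio scaling 7 beta-oxidation, 10 peroxisome, 3 citrate cycle and 4 mitochondrial genes were lower. Without control replicate 3, 3 beta-oxidation genes, 3 peroxisome genes, 0 citrate cycle genes and 1 mitochondrial gene were called.

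Breakdown of branched-chain amino acids, which in fat cells feeds the same oxidation, gave 9 genes lower and 1 higher of 19 tested, with a median of -0.58, and 4 lower without co-culture replicate 1, control replicate 1 or control replicate 3. Bckdha and Bckdhb, subunits of the rate-setting dehydrogenase, had log2 fold changes of -1.05 and -1.04. The exception was Bcat1, the cytosolic transaminase that is often raised in growing cells, at 45.3, 32.9 and 84.9 FPKM in co-culture against 15.4, 20.2 and 14.3 FPKM, a rise of 1.58 (SE 0.32, adjusted p 0.0206). Of 27 genes of sterol synthesis and cholesterol transport 6 were lower and none higher. They included Apoe, the apolipoprotein of cholesterol transport, at 358, 498 and 136 FPKM against 1521, 883 and 1235 FPKM, and the cholesterol exporters Abca1 and Abcg1 at -0.91 and -1.19. Scarb1, the receptor for high-density lipoprotein, fell by 1.53 (SE 0.16, adjusted p 0.00407). In controls 19 of the 27 sterol and cholesterol genes were higher at 72 h than at 24 h (10.2% of all genes were). Apoe was called in 2 of 6 fits without 1 library, and is also made by macrophages. Cav1, the main protein of caveolae, was at 43.9, 45.4 and 80.3 FPKM against 328, 207 and 318 FPKM, a log2 fold change of -2.35 (SE 0.27, adjusted p 0.00464), and its partner Cav2 fell by 1.5. Without co-culture replicate 1, control replicate 1 or control replicate 3, 2 of 8 caveolae genes were lower, beside 4 in the full comparison.

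The promoter of Cd36 holds a match, with 2 mismatches, to the element through which the nuclear receptor made from Pparg is known to act. It is printed from 250 bases upstream to the base before the start site (RefSeq, GRCm38.p6, minus strand, chr5:17835897-17836146), with the match to a repeat of AGGTCA spaced by 1 base, read on the other strand, in capitals.
Cd36: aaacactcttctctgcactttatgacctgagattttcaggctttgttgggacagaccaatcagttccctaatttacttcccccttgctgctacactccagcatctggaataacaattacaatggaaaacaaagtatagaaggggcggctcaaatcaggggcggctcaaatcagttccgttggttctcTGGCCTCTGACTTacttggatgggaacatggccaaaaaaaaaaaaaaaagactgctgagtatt
Allowing 2 mismatches in the 12 bases of the half-sites and counting both strands, such a match stood in 4 of 26 promoters (15.4%) of the lipid droplet and triglyceride genes that were lower. It stood in 2.32% of the 12115 promoters of all genes tested and in 3.24% of all 32851 promoters. The promoters with a match belonged to 3 genes, Aqp7, Cd36 and Plin2, of the 19 genes among 29 with an entry. Aqp7 contributed overlapping windows that share a match. Motifs were also common in lists with few calls. The element TGATGNAA stood in 6 of 28 promoters (21.4%) of the ATF4 amino acid response list, beside 2.0% for all genes tested. Of that list 2 of 26 genes were called. The element GGAATG stood in 6 of 14 promoters (42.9%) of the YAP and serum response list, beside 10.6%. Of that list 2 of 17 genes were called. A match describes letters and not binding.

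Glycolysis went the other way. Of 19 tested glycolysis genes 10 were higher in co-culture, with a median of 0.76, and only Gapdh was lower. Slc16a3, the transporter that exports lactate, was at 179, 105 and 161 FPKM in co-culture and at 26.4, 35.4 and 32.8 FPKM in controls, a 4.70-fold difference of the means and a log2 fold change of 2.19 (SE 0.21, adjusted p 0.00337). Eno1, enolase, was at 1895, 1287 and 1639 FPKM against 543, 697 and 617 FPKM, a log2 fold change of 1.36 (SE 0.17, adjusted p 0.00615). Pgk1, phosphoglycerate kinase, was at 460, 334 and 361 FPKM against 140, 161 and 169 FPKM, a log2 fold change of 1.28 (SE 0.14, adjusted p 0.00464). In all of these the lowest co-culture library, replicate 2 each time, still lay well above the highest control. Ldha, Pkm, Gpi1, Pfkl, Pgam1, Tpi1 and the glucose transporter Slc2a1 rose by between 0.63 and 0.91. Hexokinase 2 (Hk2) was at 22.9, 18.1 and 23.9 FPKM against 15.1, 15.6 and 15.8 FPKM and did not pass (adjusted p 0.0594). Gapdh, at 14.5, 12.7 and 10.3 FPKM against 32.8, 25.6 and 21 FPKM, has many near-identical processed pseudogenes that may share its reads, so its value is uncertain. The effect of shared reads on this value, or on those of the genes that rose, was not tested. Between 6 and 12 glycolysis genes were called as higher in the fits without 1 library, the fewest without control replicate 3.

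Targets of the hypoxia factor HIF1 outside glycolysis shifted in the same direction, with 7 higher and 1 lower of 16 tested and a median of 0.58. Ndufa4l2 (chr10:127514967-127517154, GRCm38), a mitochondrial protein that dampens complex I in low oxygen, had the largest rise of the genes called with a mean of at least 5 FPKM in the higher group. It was at 117, 51.5 and 144 FPKM in co-culture and at 4, 10.9 and 6.27 FPKM in controls, a log2 fold change of 3.77 (SE 0.44, adjusted p 0.00475), and the groups lay apart by a wide margin. P4ha1, a prolyl hydroxylase of collagen, was at 227, 190 and 221 FPKM against 95.7, 102 and 103 FPKM, a log2 fold change of 1.08 (SE 0.10, adjusted p 0.0036). Egln3 and Egln1, the oxygen sensors that mark HIF1 for breakdown, rose by 1.15 and 0.52, and Bnip3, a mitophagy receptor, by 0.95. Car9, a carbonic anhydrase used as a hypoxia marker, was low at 4.56, 4.30 and 3.94 FPKM against 2.33, 2.46 and 2.06 FPKM. Ndrg1 went against the list at -1.11 (SE 0.25, adjusted p 0.0286), and Vegfa, at 452, 363 and 723 FPKM against 290, 349 and 315 FPKM, did not pass (adjusted p 0.112). Without co-culture replicate 1 or without control replicate 2, 2 genes of the list were higher.

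The promoters of some of these genes are shown because HIF1 is known to bind the core ACGTG. They are the 250 bases before the start site (RefSeq, GRCm38.p6), with matches to ACGTG on either strand in capitals. Ldha (chr7:46845554-46845803), P4ha1 (chr10:59323046-59323295) and Pgk1 (chrX:106186850-106187099) lie on the plus strand, and Egln3 (chr12:54203875-54204124) lies on the minus strand. In Ldha, 2 of the matches are the palindrome CACGTG, which holds the core on both strands and is also the E-box bound by MYC.
Ldha: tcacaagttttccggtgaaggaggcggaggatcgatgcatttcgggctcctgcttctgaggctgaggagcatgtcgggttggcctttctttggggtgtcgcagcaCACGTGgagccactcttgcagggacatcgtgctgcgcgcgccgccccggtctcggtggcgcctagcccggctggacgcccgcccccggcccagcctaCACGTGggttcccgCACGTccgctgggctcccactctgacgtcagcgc
Pgk1: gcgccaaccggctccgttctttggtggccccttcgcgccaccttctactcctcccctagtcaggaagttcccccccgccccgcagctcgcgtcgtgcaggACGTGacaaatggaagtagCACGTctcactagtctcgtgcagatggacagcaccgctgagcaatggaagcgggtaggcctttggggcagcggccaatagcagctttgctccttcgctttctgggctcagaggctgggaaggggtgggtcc
P4ha1: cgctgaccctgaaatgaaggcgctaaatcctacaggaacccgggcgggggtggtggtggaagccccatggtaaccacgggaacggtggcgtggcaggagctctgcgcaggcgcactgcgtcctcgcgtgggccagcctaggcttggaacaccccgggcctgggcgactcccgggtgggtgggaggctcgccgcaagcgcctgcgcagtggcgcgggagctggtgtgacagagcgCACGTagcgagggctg
Egln3: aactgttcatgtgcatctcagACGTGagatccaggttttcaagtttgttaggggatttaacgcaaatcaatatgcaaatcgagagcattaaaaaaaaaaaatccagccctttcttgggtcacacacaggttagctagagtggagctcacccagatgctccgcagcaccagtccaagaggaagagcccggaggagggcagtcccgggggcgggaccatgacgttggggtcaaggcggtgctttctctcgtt
The core stood in 6 of 14 promoters (42.9%) of the glycolysis genes that were higher and in 6 of 6 (100%) of the HIF1 targets that were higher and had an entry, beside 21.5% of the promoters of all genes tested. The E-box CACGTG stood in 1 of the 14 glycolysis promoters (7.14%), beside 8.35% of the promoters of all genes tested. The HIF1 list is made of known targets, in which the core can be common whatever their change, and the listed genes that were not higher were not counted. These shares therefore say nothing about the rise at 72 h. So short a motif occurs often, and a match does not show that the factor was bound.

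Among matrix genes, part of the glycoprotein list was higher and part of the small proteoglycan list lower. Of 20 tested genes of the versican, fibronectin and glycoprotein list 8 were higher and 1 lower, with a median of 0.55, and 4 were higher without co-culture replicate 1, control replicate 1 or control replicate 3. Fn1 (chr1:71585520-71653200, GRCm38), fibronectin, which links collagen to integrins, was at 9086, 8873 and 10101 FPKM in co-culture and at 3248, 3618 and 2992 FPKM in controls. That is a 2.85-fold difference of the means without overlap, with a log2 fold change of 1.51 (SE 0.17, adjusted p 0.00475). Vcan (chr13:89655312-89742509, GRCm38), the large chondroitin sulfate proteoglycan versican, was at 79.4, 81.1 and 79.4 FPKM against 46.1, 42.9 and 22.9 FPKM, a log2 fold change of 1.15 (SE 0.24, adjusted p 0.0233). The co-culture libraries were nearly equal and the spread came from the controls, and Vcan was not called without co-culture replicate 1.

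Chst11, which adds sulfate to the chondroitin chains that versican carries, was at 18.1, 16.9 and 15.9 FPKM in co-culture and at 9.07, 8.13 and 6.55 FPKM in controls, a log2 fold change of 1.06 (SE 0.15, adjusted p 0.00774). Sdc4, syndecan 4, a membrane proteoglycan that binds fibronectin, was at 388, 298 and 320 FPKM against 149, 123 and 113 FPKM, a log2 fold change of 1.39 (SE 0.14, adjusted p 0.0039). In both, the groups were well apart and the call held in all 6 fits without 1 library. Among the other 15 enzymes of chondroitin sulfate synthesis Ugdh, which makes the sugar precursor, was higher at 0.43 and Chpf, a chain polymerase, lower at -0.46.

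Spp1 (chr5:104435118-104441050, GRCm38), osteopontin, was at 1078, 1156 and 677 FPKM against 132, 81.5 and 97.2 FPKM, a 9.36-fold difference of the means and a log2 fold change of 3.21 (SE 0.24, adjusted p 0.00269). Tenascin C of provisional matrix, the gene Tnc, was higher as well. Tnfaip6, which transfers heavy chains to hyaluronan, and the hyaluronan receptor Cd44 rose by 1.5 and 0.68. Eln, elastin, was the gene that fell, at 50.5, 56.3 and 36.7 FPKM against 115, 168 and 128 FPKM, a log2 fold change of -1.51 (SE 0.19, adjusted p 0.00615).

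**Figure D3:**
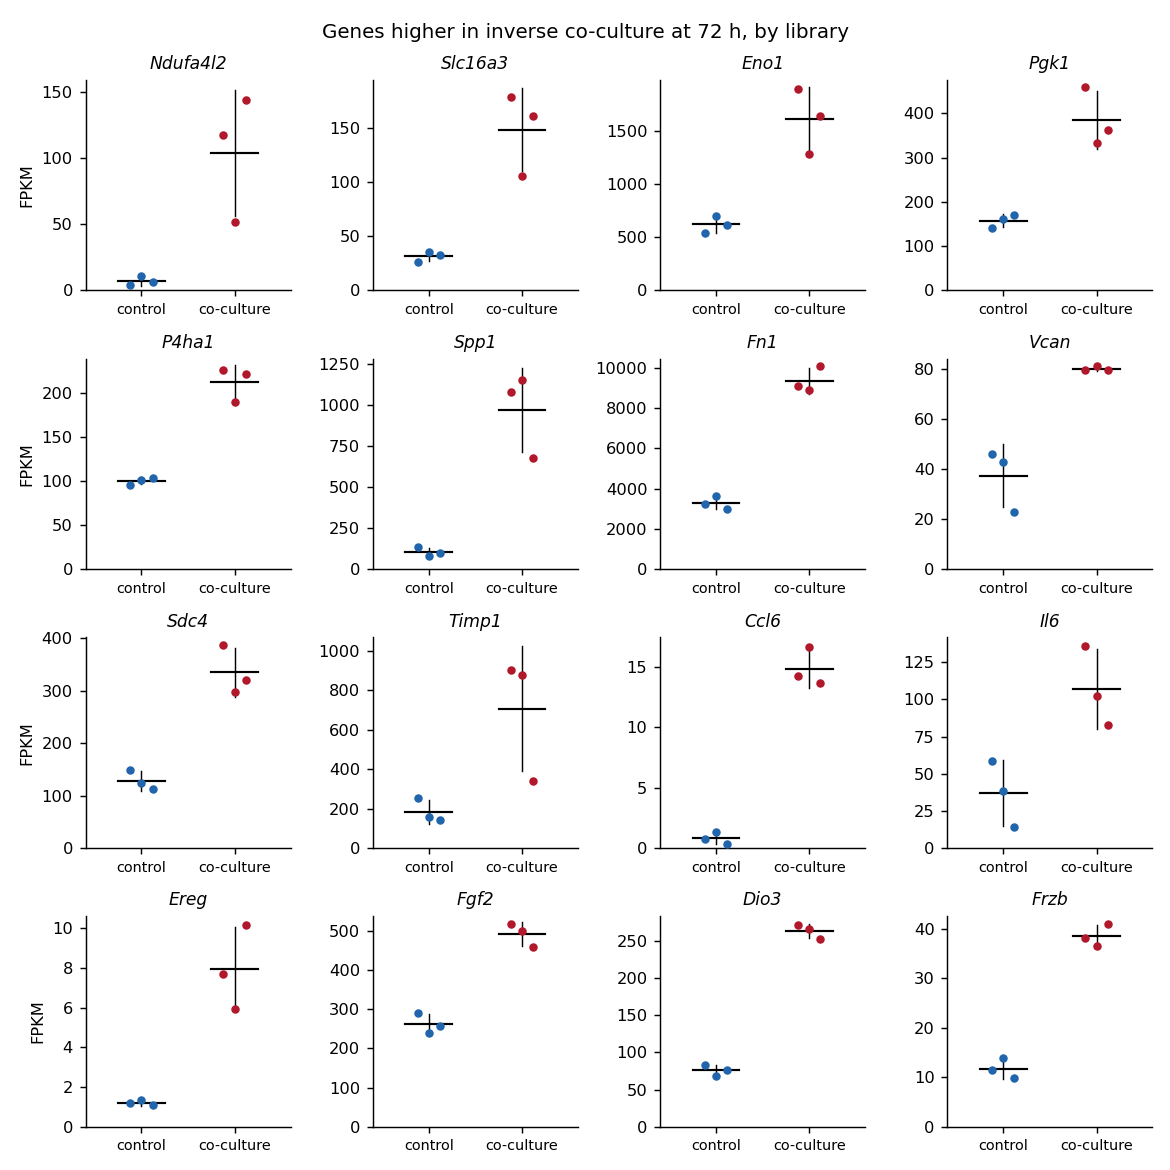
Levels of 16 genes that were higher in inverse co-culture at 72 h, in FPKM on linear axes, with 1 point per library for control (blue) and co-cultured (red) PSC, the mean as a bar and the SD as a line (n = 3). The 3 co-culture libraries lie above the 3 controls in each gene shown, as they do in every gene called higher. For Spp1 the values are 677 to 1156 against 81.5 to 132 FPKM.

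Few collagens were called. Of 20 fibrillar and network collagens 1 was higher and 3 were lower, with a median of 0.24. Col1a1, the main chain of type I collagen, was at 9517, 8277 and 9337 FPKM in co-culture and at 5200, 7248 and 4918 FPKM in controls. The libraries did not overlap, but the log2 fold change of 0.66 (SE 0.22) had an adjusted p of 0.0817. Col5a2 rose by 0.57, while Col6a2 and Col6a3 of the beaded type VI collagen had -0.52 and -0.79, and Col5a3 had -1.36, at 28.2, 34.2 and 20.8 FPKM against 79.6, 67 and 66 FPKM. Enzymes that process collagen showed more calls, with 7 of 16 higher, none lower and a median of 0.49. Besides P4ha1 they were P4ha2, P4ha3 and Plod1, which hydroxylate collagen, and the lysyl oxidases Lox, Loxl2 and Loxl4, which cross-link it, with rises of 0.55 to 0.86. In the fits without 1 library between 1 and 7 of these were called, the fewest without co-culture replicate 1, control replicate 1 or control replicate 3, and with each of these left out P4ha1 was among those called.

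Of 16 small leucine-rich and heparan sulfate proteoglycans 6 were lower and 2 higher, with a median of -0.59. Lum, lumican, which spaces collagen fibrils, was at 17.5, 19.7 and 11.3 FPKM in co-culture against 52.6, 38.5 and 56.1 FPKM, a log2 fold change of -1.59 (SE 0.23, adjusted p 0.00774). Aspn, asporin, fell by 1.52, while Podn, podocan, had -1.21 and Gpc3, a glypican, -1.17. All 4 were called in every fit without 1 library. Of 19 proteases and inhibitors 6 were higher and 3 lower, and 2 higher without co-culture replicate 1 or control replicate 3. Timp1, an inhibitor of matrix metalloproteinases, was at 900, 877 and 341 FPKM against 251, 156 and 142 FPKM, a log2 fold change of 1.86 (SE 0.39, adjusted p 0.023), with co-culture replicate 3 close to the controls, and it was called in 3 of 6 fits without 1 library. Plat and Plaur, activator and receptor of the plasmin system, rose by 0.93 and 0.84, and the stromelysins Mmp3 and Mmp10 by 1.51 and 2. Mmp11, stromelysin 3, fell by 1.54, at 121, 129 and 158 FPKM against 389, 310 and 509 FPKM.

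No gene of the contractile programme was called. Of 17 tested contractile and myofibroblast genes none was higher or lower, with a median of -0.25. Acta2, smooth muscle actin and the usual mark of activated PSC, was at 900, 563 and 1362 FPKM in co-culture and at 763, 1347 and 1137 FPKM in controls, a log2 fold change of -0.25 (SE 0.33, adjusted p 0.636). The groups overlapped fully. Cnn1, calponin, was at 176, 116 and 198 FPKM against 186, 314 and 233 FPKM (adjusted p 0.147). In controls, 10 of the 17 genes were lower at 72 h than at 24 h (9.05% of all genes were), with a median of -0.83. Of 14 vitamin A and quiescent stellate cell genes 4 were lower and 2 higher, and 1 lower without control replicate 1 or control replicate 3. Aldh1a1, which makes retinoic acid, fell by 1.12, at 41.4, 46.2 and 41.9 FPKM against 84.2, 83.9 and 119 FPKM, while the retinoic acid receptor Rarb rose by 1.64. The desmin gene Des, at 0.71, and Vim, at -0.05, did not pass (adjusted p 0.17 and 0.87), and pericyte marker Mcam fell by 2.16, at 14.1, 12.4 and 24.2 FPKM against 49.7, 84.9 and 97.3 FPKM.

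Dio3, which inactivates thyroid hormone and was chosen after its value was seen, was at 271, 266 and 253 FPKM against 83.2, 68.1 and 76.7 FPKM, a log2 fold change of 1.79 (SE 0.10, adjusted p 0.0012). The groups lay far apart, with little spread within either. Among secreted signals, of 15 genes of the IL6 family and STAT3 response 5 were higher and none lower, with a median of 0.29, and only 1 was higher without co-culture replicate 1, control replicate 2 or control replicate 3. Il6, the cytokine that marks inflammatory fibroblasts, was at 136, 102 and 82.6 FPKM against 58.4, 38.1 and 14.4 FPKM, a log2 fold change of 1.70 (SE 0.45) with an adjusted p of 0.0482, and it was called only without control replicate 1 among the fits without 1 library. Lif and Il11 rose by 1.31 and 1.65, both called in 1 of those 6 fits, while Socs5, a feedback inhibitor, rose by 1.10 (SE 0.11, adjusted p 0.00385) in all of them.

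Of 15 chemokines tested 3 were higher and none was lower, and 1 was higher without co-culture replicate 1. Ccl6 was at 14.3, 16.7 and 13.7 FPKM in co-culture and at 0.781, 1.28 and 0.331 FPKM in controls, a log2 fold change of 3.63 (SE 0.29, adjusted p 0.00269). Cxcl14 rose by 1.58 and Ccl7, which attracts monocytes, by 1.02. Cxcl12, the stromal ligand of CXCR4, was at 92.5, 140 and 25.4 FPKM against 248, 161 and 276 FPKM, without overlap but with an adjusted p of 0.0853. Of 17 NF-kB and IL1 genes 2 were higher and 1 lower, beside 3.27% and 9.57% of all genes tested. The pattern recognition protein Ptx3 rose by 0.80, at 715, 698 and 597 FPKM against 418, 385 and 350 FPKM, and the adhesion molecule Vcam1 fell by 1.30, at 38.6, 43.3 and 36.5 FPKM against 91.6, 85.9 and 119 FPKM. Tnfsf15 rose by 3.07 on the log2 scale, but its co-culture libraries ranged from 2.71 to 29.9 FPKM and it was called in none of the 6 fits without 1 library.

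Growth factor genes moved in both directions. Ereg, epiregulin, a ligand of the EGF receptor, was at 7.69, 5.94 and 10.2 FPKM in co-culture and at 1.19, 1.34 and 1.08 FPKM in controls, a log2 fold change of 2.28 (SE 0.23, adjusted p 0.00385). Fgf2 was at 518, 498 and 457 FPKM against 289, 240 and 257 FPKM, a log2 fold change of 0.91 (SE 0.11, adjusted p 0.00575). Gas6, the ligand of AXL, MER and TYRO3, went the other way at 221, 281 and 132 FPKM against 621, 647 and 548 FPKM, a log2 fold change of -1.58 (SE 0.25, adjusted p 0.0102). Pdgfa, Vegfb and Vegfd were lower by 0.68, 0.67 and 0.81 on the log2 scale. In all, 2 of 24 ligands were higher and 4 lower, beside 3.27% and 9.57% of all genes tested. Only 1 ligand was lower without co-culture replicate 1 or without any 1 of the 3 controls.

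Of 23 receptor tyrosine kinases and feedback genes 7 were higher and 2 lower, with a median of 0.38. The higher ones were the receptor Pdgfra at 0.38 and genes known to be induced by ERK signalling, the phosphatase Dusp6 at 1.15, the factors Etv4 and Etv5 at 1.24 and 0.69, and the inhibitors Spry2, Spred2 and Spred3 at 0.86, 0.51 and 0.63. Dusp6 was at 20.2, 16.5 and 21.3 FPKM against 9.07, 6.20 and 10.4 FPKM. The receptors Met and Fgfr2 were lower, Met at 0.759, 1.23 and 0.654 FPKM against 4.93, 3.23 and 5.58 FPKM and Fgfr2 at 4.63, 4.60 and 5.10 FPKM against 12.9, 12.9 and 13.5 FPKM. Without co-culture replicate 1 none of the 7 was called as higher. Fosl1, an AP-1 factor of the same response, rose by 1.48 (SE 0.18, adjusted p 0.00512).

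In the TGF-beta, BMP, Wnt and Notch lists more genes were called lower than higher. The same held over all genes tested, with 9.57% lower and 3.27% higher. Grem1, a BMP antagonist, was at 7.88, 14.3 and 6.22 FPKM in co-culture and at 37, 31.5 and 50.8 FPKM in controls, a log2 fold change of -2.07 (SE 0.30, adjusted p 0.00805). Bmp4 and Bmp2, BMP ligands of low level here, had log2 fold changes of -1.5 and -1.33. Hey1, a Notch target, was at 1.87, 1.19 and 3.72 FPKM against 13.6, 10.3 and 11.2 FPKM, and Lfng, which modifies Notch, at 15.7, 18.7 and 16.2 FPKM against 43.1, 48.6 and 59.6 FPKM. Their log2 fold changes were -2.24 and -1.54, and the ligand Jag1 and the receptor Notch3 fell by 1.04 and 0.77. Smad6, an inhibitor of BMP signalling, and Id4, a BMP target, fell by 0.85 and 1.04, and Smad3, the TGF-beta effector, rose by 0.90, at 101, 115 and 128 FPKM against 58.6, 61.1 and 62.8 FPKM. Genes that were higher included the Wnt antagonist Frzb at 1.68 (SE 0.14, adjusted p 0.00313), the BMP antagonist Chrdl2 at 2.98 and Bmp6 at 0.88. The BMP family ligand Gdf6 and the receptor Notch4 also rose, by 2.27 and 2.14. Of 18 Wnt and Notch genes 6 were lower and 2 higher, of 12 genes of BMP ligands and antagonists 4 and 2, and of 18 TGF-beta and activin genes 3 and 1. Without control replicate 3, 3 of the Wnt and Notch genes and 2 of the BMP genes were called as lower, and the BMP count was also 2 without co-culture replicate 1 or control replicate 1.

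Some genes of cell division were higher in co-culture than in the controls of 72 h, in calls that rested on single libraries. Of 23 tested genes of mitosis 12 were higher and none lower, and all 23 had a positive fold change, with a median of 0.78. Top2a, the topoisomerase of dividing cells, was at 54.4, 43.7 and 60.8 FPKM against 18.9, 30.9 and 20.4 FPKM, a log2 fold change of 1.18 (SE 0.20, adjusted p 0.0132). Mki67, the usual mark of cycling cells, was at 14.4, 12.5 and 18.2 FPKM against 6.07, 9.60 and 5.76 FPKM, a log2 fold change of 1.04 (SE 0.22, adjusted p 0.0251). Control replicate 2 was the highest control in both. These calls were fragile, since without co-culture replicate 1 or without control replicate 3 none of the 12 was called. In controls all 23 genes were lower at 72 h than at 24 h, with a median of -1.35, and Mki67 averaged 16 ± 4.65 FPKM in controls and 15.3 ± 6.88 in co-culture at 24 h, beside 7.14 ± 2.13 and 15 ± 2.88 at 72 h. Of 26 genes of DNA replication 4 were higher, among them Mcm2 and Uhrf1 at 1.00 and 1.11, with a median of 0.40, and none was without co-culture replicate 1. Myc rose by 1.21, at 32.3, 27.4 and 47.6 FPKM against 14.9, 16.1 and 13.4 FPKM.

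Ribosomal protein genes showed small positive shifts whose calls depended on the scaling. Of 66 tested, 65 had a positive fold change, with a median of 0.32, and 9 were called as higher, but 45 with median-ratio scaling and none without co-culture replicate 1, control replicate 1 or control replicate 2. Rpl12 changed most among those called, by 0.64, at 386, 350 and 463 FPKM against 282, 222 and 265 FPKM. These short genes have many near-identical pseudogene copies, so their values are uncertain, and in controls 64 of the 66 were lower at 72 h than at 24 h. Among 26 genes of the ATF4 amino acid response Pycr1, of proline synthesis, and Ddit4, an inhibitor of mTORC1, were higher by 0.96 and 1.02. The other 24 did not pass, with a list median of 0.67, and co-culture replicate 3 stood apart there, as for Asns, asparagine synthetase, at 118, 107 and 278 FPKM against 66.2, 89 and 68 FPKM (adjusted p 0.0804). None of 20 cytosolic tRNA synthetases and none of 19 ER chaperone genes was called.

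**Figure D4:**
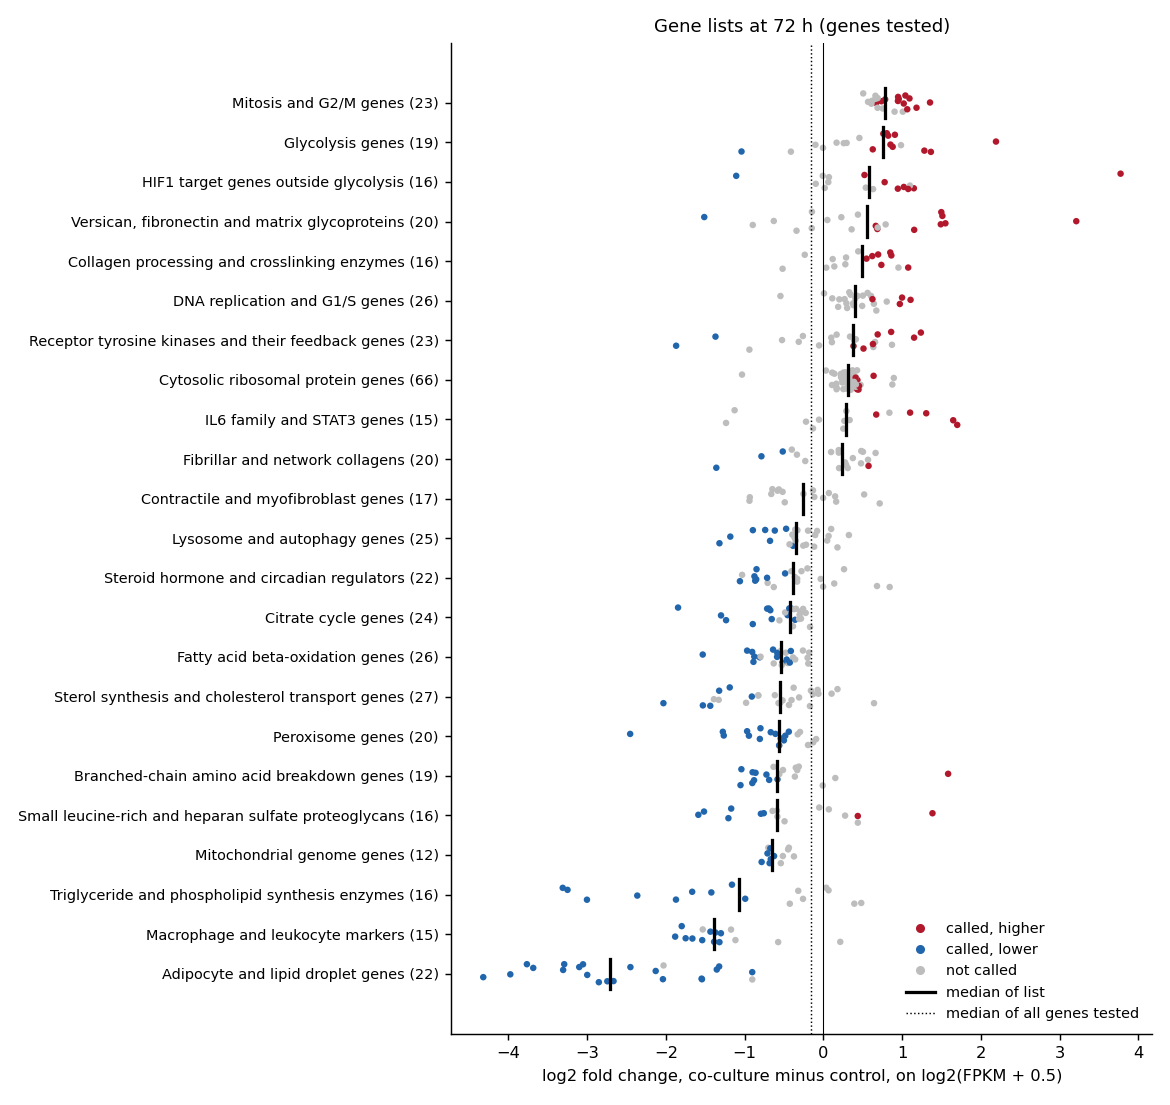
Log2 fold changes at 72 h of the genes tested in 23 lists, 1 point per gene, with the number of genes tested in brackets. Genes called higher are red, called lower blue and not called grey, the thick bar is the median of the list and the dotted line the median of all genes tested. The adipocyte and lipid droplet list lies lowest with a median of -2.70, and of the lists shown mitosis and glycolysis lie highest with 0.78 and 0.76.

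Macrophage markers were lower in co-culture, and some complement and lysosomal genes called lower are also made by macrophages. Of 20 macrophage and leukocyte markers 15 were tested and 10 were lower in co-culture, none higher, with a median of -1.39. Their summed FPKM was between 78.8 and 112 in co-culture and between 175 and 345 in controls. Lyz2, lysozyme, was at 59.8, 64.6 and 41.5 FPKM against 152, 93.6 and 172 FPKM, a log2 fold change of -1.30 (SE 0.25, adjusted p 0.0185), and Adgre1, which encodes F4/80, at 0.314, 0.559 and 0.454 FPKM against 2.61, 1.98 and 3.55 FPKM. Mrc1 and Cx3cr1 were below 1 FPKM in all 6 libraries. None of the 10 was called without co-culture replicate 1, control replicate 1 or control replicate 3, and 11 of the 15 were higher in 72 h than in 24 h controls. Of 15 complement genes 3 were lower, and 1 was without co-culture replicate 1, control replicate 1 or control replicate 3. In controls 13 of 15 complement genes tested were higher at 72 h than at 24 h (10.2% of all genes were). C1qa and C1qb, subunits of C1q, had log2 fold changes of -1.66 and -1.54 and are themselves macrophage markers, and Cfd, complement factor D or adipsin, fell by 2.74 and is also a product of fat cells. Lysosomal genes included 8 lower of 25, led by Ctss and Gpnmb at -1.32 and -1.18, which macrophages also express, and 1 was lower without co-culture replicate 1, control replicate 1 or control replicate 3. The part that macrophages have in these results was not tested.

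**Figure D5:**
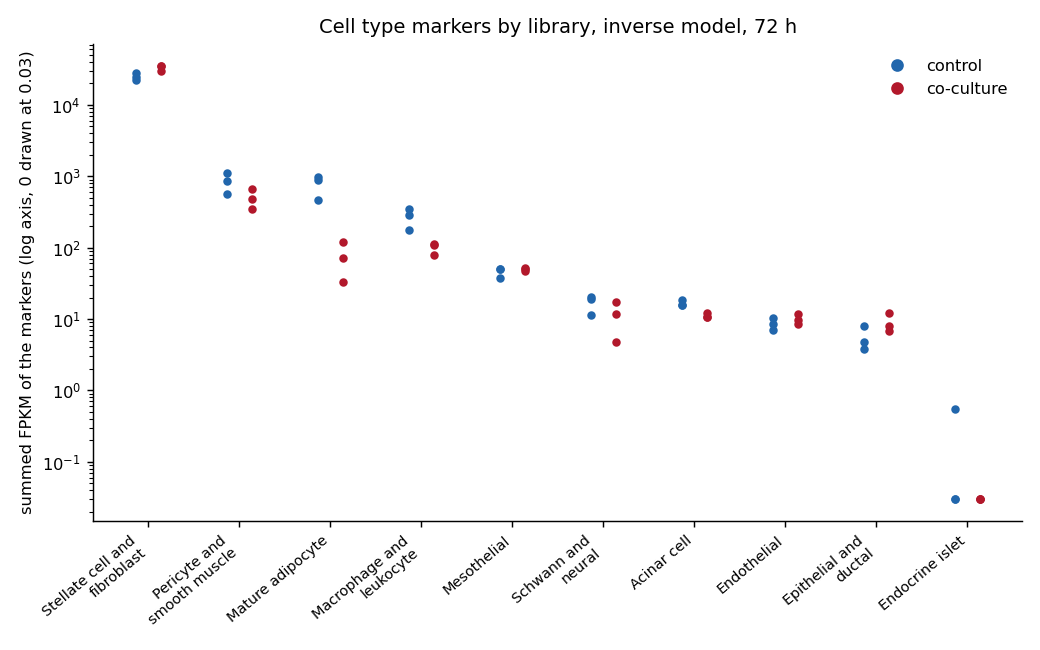
Summed FPKM of the marker lists of cell types in each of the 6 libraries, on a log axis with 0 drawn at 0.03, 1 point per library for control (blue) and co-cultured (red) PSC at 72 h. Adipocyte and macrophage markers lie lower in co-culture, at 32.8 to 121 against 465 to 977 and at 78.8 to 112 against 175 to 345, while stellate cell and fibroblast markers lie above both, at 29725 to 35471 against 21988 to 27986.

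Few interferon-stimulated genes were called at 72 h, with 3 lower and none higher of 19 tested and a median of -0.31. Over all genes tested 9.57% were lower. None was called without control replicate 1 or control replicate 3, and median-ratio scaling gave 1 higher and 1 lower. The GTPase Gbp3 fell by 1.49, at 1.74, 3.73 and 2.63 FPKM against 7.82, 7.04 and 9.91 FPKM. At 24 h Gbp3 averaged 13.2 ± 7.98 FPKM in co-culture and 5.82 ± 2.67 in controls, so its means lay the other way around at that time. Of 13 antigen presentation genes 2 were lower, Nlrc5 and Tap2, at -1.36 and -0.41, and none was with median-ratio scaling or in any fit without 1 library except that without co-culture replicate 2.

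Keratin 19 (Krt19), a ductal and mesothelial gene, was low at 1.83, 1.17 and 3.11 FPKM in co-culture and at 0.176, 0.116 and 0 FPKM in controls, a log2 fold change of 2.03 (SE 0.40, adjusted p 0.0189) that was called in none of the 6 fits without 1 library. Krt8 was at 0.919, 0.088 and 3.14 FPKM and at 0 in every control, while Epcam was at 0 in all 6 libraries and the summed FPKM of 22 epithelial markers was between 6.73 and 12 in co-culture and between 3.78 and 7.99 in controls. Whether a few KPC cells contributed RNA was not tested. Itga6, an integrin of laminin receptors, was at 0.828, 1.39 and 1.49 FPKM against 13.7, 12 and 16.9 FPKM, a log2 fold change of -3.09 (SE 0.23, adjusted p 0.00269). Nrp2, a coreceptor of semaphorins and VEGF that was chosen after its value was seen, was at 2.45, 3.16 and 2.65 FPKM against 11.4, 14 and 15.4 FPKM, a log2 fold change of -2.11 (SE 0.17, adjusted p 0.00269). Neither gene overlapped between the groups, as was the case for all 1678 genes called and for 38.3% of all genes tested.

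Other genes with large changes were spread over many functions. Ch25h, which makes the oxysterol 25-hydroxycholesterol, was at 114, 94.9 and 110 FPKM in co-culture and at 23.7, 13.4 and 20.3 FPKM in controls, a log2 fold change of 2.48 (SE 0.20, adjusted p 0.00269). Steap1, a metalloreductase, was at 32.4, 33.3 and 41.5 FPKM against 9, 8.26 and 6.77 FPKM, and Gdf6, a BMP family ligand, at 73, 44.6 and 122 FPKM against 16.8, 12.9 and 15.1 FPKM. Igfbp6, which binds IGF2, was at 154, 154 and 142 FPKM against 63.7, 57.9 and 66.2 FPKM, a rise of 1.25 (SE 0.10, adjusted p 0.00269). None of these overlapped between the groups, and all were called in all 6 fits without 1 library. On the lower side, Scara5, a ferritin receptor, was at 12.7, 26.8 and 2.97 FPKM against 101, 81.3 and 119 FPKM. Notch4, a Notch receptor, was at 9.98, 8.46 and 8.23 FPKM in co-culture against 1.26, 1.98 and 1.68 FPKM, a rise of 2.14 (SE 0.20, adjusted p 0.00337). Gpr35, Tnfsf8 and Tmem59l rose by 3.22, 3.09 and 2.69, and Cdo1, Cited4, Adig and Ffar2 had -3.98, -3.67, -3.26 and -3.20 on the log2 scale. Car6, Sh2d6, A2m and Serinc2 also rank among the largest rises, but they were called in 0, 2, 2 and 3 of the 6 fits without 1 library.

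Of the study's 47 genes that changed in both models, 46 were tested here and 32 were higher and 10 lower, which is no independent evidence because they were chosen on these libraries. Without co-culture replicate 1, 21 of them were higher and 5 lower, and 5 were also lower without control replicate 3. Of 13 markers of inflammatory fibroblasts 4 were higher, Il6, Has1, Ptx3 and Tnfaip6, and 3 lower, Apoe, Dpt and Gsn. The study examined such markers on these same samples, and its text names Il6 and gelsolin (Gsn) among them, so this is again no independent evidence. Without co-culture replicate 1, co-culture replicate 2, control replicate 2 or control replicate 3, 2 of the 13 were higher. Of 13 markers of antigen-presenting fibroblasts Cxadr and Ptgis were higher and Cav1 and Hspb1 lower. Regulators of the clock and of steroid hormones included 7 lower of 22, among them Per2, Per3 and Dbp at -0.72, -0.88 and -0.85, and 1 was lower without co-culture replicate 1 or control replicate 3. Of 18 NRF2 targets 4 were lower and 1 higher, with the glutathione transferase Gstm1 at -1.11 and the thioredoxin reductase Txnrd1 at 0.48. Of 18 genes of the p53 response 3 were lower, Cdkn1c, Cdkn2c and Phlda3, and of 11 prostaglandin genes Ptgs1 and Ptgis were higher and Hpgd, which degrades prostaglandins, was lower. Laminins and basement membrane genes gave 3 lower of 14, Lama5, Lamb3 and Npnt, and none without control replicate 2 or control replicate 3. Beside the counts of these short lists, 3.27% of all genes tested were higher and 9.57% lower. The p53 list had no lower gene without co-culture replicate 1, control replicate 1 or control replicate 3, and the prostaglandin list no higher gene without control replicate 3.

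The effect of co-culture was then compared between the time points of the inverse model, as the difference of log2 fold changes over 12 libraries. With limma 0 of 13722 genes passed an adjusted p of 0.05, while 1471 (10.7%) had an unadjusted p below 0.05, 431 of them (3.14%) higher and 1040 (7.58%) lower at 72 h, and limma's voom on recovered fragments called 14. The count was 75 without 24 h co-culture replicate 3, 43 without 72 h control replicate 2 and 20 without 72 h co-culture replicate 2. Dgat2 had the smallest adjusted p together with Cited4, at 0.0595, and its effect differed by -2.26 (SE 0.30, 72 h minus 24 h). For Plin1 the difference was -3.30 (SE 0.69, adjusted p 0.125) and for Scarb1 -1.36 (SE 0.21, adjusted p 0.0643). Of 22 adipocyte and lipid droplet genes 21 had an unadjusted p below 0.05 in the lower direction, of 19 interferon-stimulated genes 15 did, and of 23 mitosis genes 16 did in the higher direction. Vcan, with 69.3 ± 18.3 FPKM in co-culture and 30.7 ± 7.52 in controls at 24 h, had a difference between the times of 0.00 (SE 0.37), Chst11 of 0.12 (SE 0.26), and Spp1 of -0.52 (SE 0.49). Sdc4 had 0.73 (SE 0.21, adjusted p 0.26).

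Against the standard model at 72 h, the effect of inverse co-culture differed in 0 of 14452 genes with limma, with 501 (3.47%) at an unadjusted p below 0.05, 118 (0.816%) higher and 383 (2.65%) lower, and voom called 0, but with the block by replicate number 16 passed. Plin1 was at 15, 33.2 and 89.6 FPKM in standard co-culture and at 10.8, 118 and 110 FPKM in its controls, so replicate 1 was low in both. The effects differed by -3.77 (SE 1.23, adjusted p 0.997, inverse minus standard) without regard to replicate numbers. In the standard model at 72 h libraries of the same number deviated together, with correlations of 0.539, 0.439 and 0.394, while in the inverse model they did not, with 0.0815, -0.0825 and 0.0998. When each model's replicates were blocked by number, 16 genes differed, all of them lower in the inverse model, among them Plin1 at -3.77 (SE 0.69, adjusted p 0.0448), Acsl1 at -3.16 (SE 0.56), Dgat2 at -2.29 (SE 0.39), Gpam at -1.21 (SE 0.16) and Scarb1 at -1.28 (SE 0.22). Without the block, 17 of 23 adipocyte and lipid droplet genes had an unadjusted p below 0.05 in that direction. Fn1 averaged 7278 ± 2177 FPKM and 3004 ± 82.7 in standard co-culture and its controls, a difference between the models of 0.28 (SE 0.40). Vcan averaged 82.1 ± 7.12 and 29.5 ± 8.52, a difference of -0.34 (SE 0.37), and Chst11 16.1 ± 1.55 and 7.39 ± 1, a difference of -0.01 (SE 0.24). The input was 120 ng of RNA in the inverse and 450 ng in the standard model. PSC and KPC cells were also together for longer in the inverse model, and PSC of each model were seeded in a different medium. Input, time together and seeding medium therefore cannot be told apart from the model.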

How the data were processed

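Poly(A) RNA of 24 PSC cultures had been sequenced by the study. The authors aligned reads with HISAT2 2.0.5 to GRCm38.p6, counted fragments with featureCounts 1.5.0-p3 without strand and deposited FPKM values in 1 table, of which all sample columns were used. Reads that lie where genes overlap, also on opposite strands, therefore cannot be assigned to 1 gene, so the values of such genes are uncertain. The authors' own DESeq2 counts were not used here. The members of this comparison and all gene lists were chosen with earlier results of these data known. From the deposited FPKM, genes above 1 FPKM in at least 3 of the libraries compared were tested on log2(FPKM + 0.5) with limma 3.58.1 (R 4.3.3), an intensity trend and Benjamini-Hochberg adjustment at 0.05. The main fit held the 6 libraries only, as the study compared each treatment with its own control. Differences of effects used 12 libraries (24 h and 72 h) and 24 libraries (inverse and standard model). Whole fragments could be recovered for 27256 of 28892 genes with a value above 0 (94.3%), and limma's voom on these was an alternative. The limit was 0.05 from a whole number, and wider only at very high counts. Same-numbered libraries of the standard model deviated together, with correlations of 0.462 to 0.771 at 24 h and 0.394 to 0.539 at 72 h. Those of the inverse model did not. The labels do not say whether equal numbers are paired in either model. The fits were also run on simulated data with the spread of the real libraries. For log2 changes of 1 and 2, the main comparison recovered 47.1% and 84.4% of the changed genes. The difference between the times recovered 39.1% and 75.1%, and that between the models 31.3% and 60.1%. A count of 0 genes in these differences therefore does not show that no effect differed. FPKM has no interval of its own here, and precision is limited by 3 libraries a group.

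Named genes were the 4 largest changes per direction among called genes of each list, the 20 largest rises and falls among called genes with a mean of at least 5 FPKM in the higher group, Vcan, Chst11, Sdc4, Fn1 and the cell type markers. Further members of the lists, and Dio3 and Nrp2, were named after their values were seen. Promoters came from RefSeq (GRCm38.p6). The genes Ccl19, Ccl21a, Aldoa and Ddit3 were not analysed here, and some other genes are not reported here.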

Additional observations from a re-analysis of the deposited data

How the results depend on the processing

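No called gene of those named or listed changed sign under the alternatives run, but the split of all genes called changed from mostly lower to 746 higher and 686 lower with median-ratio scaling and 677 of each with quantile scaling. Medians near 0 of some lists also changed sign with scaling, such as that of the TGF-beta and activin list, from -0.09 to 0.07. The 1678 genes called at 72 h became 888 with no filter on low values, 902 with the replicate number as a block, 940 with all 24 libraries in the fit, 331 at an adjusted p of 0.01, and between 368 and 1637 without 1 library. The 12-library fit called 2423, and other pseudocounts, scalings, the fit without a trend and voom gave between 1310 and 1874. The difference between 72 h and 24 h, with 0 genes, gave 2 with a pseudocount of 1, 4 with no filter, 2 with quantile scaling, 8 without a trend, 14 with voom and between 0 and 75 without 1 library, and the difference between the models, also 0, gave 5 with no filter and 16 with the replicate block. Controls at 72 h against 24 h, with 2516 genes, gave 1425 with no filter, 236 with 24 libraries, 928 at 0.01 and between 1243 and 2369 without 1 library. In the gene lists 305 genes were called, and 173 with no filter, 198 with the replicate block, 161 with 24 libraries, 100 at 0.01 and between 111 and 300 without 1 library. Of the named genes 221 were called, and 130 with no filter, 115 with 24 libraries, 82 at 0.01 and between 87 and 192 without 1 library. Within the 72 h inverse groups, same-numbered libraries deviated from their group means with correlations of 0.0962, -0.126 and 0.103. Libraries of unlike number had between -0.224 and 0.19. These values did not show pairing but cannot exclude it, and the labels do not say whether equal numbers share an isolation. Why calls were lost there under the block was not tested. In the standard model they deviated together, and the blocked values stand beside that comparison. The cause of these changes was not tested, except that fits without 1 library hold fewer samples and the stricter limit calls fewer genes by construction. Adding genes below the filter increased the number tested from 13066 to 24201.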
